A study of Homo sapiens with 34 samples.

Results

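The HOX genes encode homeodomain transcription factors and lie in 4 clusters on separate chromosomes. They were chosen by name and not by any measured value, though with earlier results of these data known. The set held 38 HOXA, HOXB, HOXC and HOXD genes out of 19970 protein-coding genes in GENCODE release 44 (hg38). In vertebrates the order of the genes along a cluster follows the order of their expression along the body axis, so that low-numbered genes act towards the head and high-numbered genes towards the tail and limbs. Polycomb complexes place trimethylation on lysine 27 of histone H3 (H3K27me3) over HOX genes that are silent, while acetylation of the same residue (H3K27ac) marks active promoters and enhancers. Methylation of lysine 4 with 1, 2 or 3 methyl groups (H3K4me1, H3K4me2, H3K4me3) marks enhancers and, with H3K4me3, promoters. A silent promoter with both H3K4me3 and H3K27me3 is called bivalent.

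The data came from KELLY, a human neuroblastoma cell line in which the MYCN oncogene is amplified. The cells held a hairpin against RUNX1T1, a transcriptional co-repressor, that Doxycycline switches on. Cells of both groups carried the construct and received the solvent DMSO or Doxycycline for 72 h, and the labels name no line without the hairpin, so an effect of Doxycycline itself cannot be told apart from one of the hairpin. Chromatin immunoprecipitation with sequencing (ChIP-seq) was done for the 5 marks in 3 libraries per mark and treatment, which gave 30 peak lists. The labels number the libraries but do not say that they came from separate cultures, so p-values measure the spread between libraries only. As a check of the cell type, H3K27ac and H3K4me3 peaks lay at the promoters of the 6 adrenergic neuroblastoma genes PHOX2A, HAND2, GATA3, ISL1, TH and DBH in all 6 libraries of either mark, and H3K27me3 peaks at 0 of these 6. HAND2 carried H3K4me2 in 3 of 3 Doxycycline libraries and in 0 of 3 with DMSO, as did 0.03% of all protein-coding genes. Of 6 mesenchymal genes 6 carried H3K4me3 and 2 carried H3K27ac in all 6 libraries, so H3K4me3 did not set these lists apart, and of 4 blood genes 1, SPI1, carried H3K27ac without H3K4me3.

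The ChIP libraries held 71.9 to 85.2 M reads in DMSO and 57.1 to 84.6 M in Doxycycline, which overlapped, while the inputs held 74.5 to 81.5 M in DMSO and 57.0 to 63.4 M in Doxycycline. Both were brought to the size of the smaller data set for calling, so that calls rested on 71.9 to 81.1 M reads in the 15 DMSO lists and on 57.0 to 63.4 M in the 15 Doxycycline lists. Since every Doxycycline input was smaller than every DMSO input, calling depth and treatment cannot be told apart. In H3K27me3 the fragment length estimate of the peak caller was 256, 265 and 280 bp in DMSO replicate 1 and Doxycycline replicates 1 and 2, and 105 to 112 bp, close to the read length of 101 bp, in the other 3 libraries. With 3 libraries against 3 the smallest p that the exact permutation test can give is 0.1.

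The sequences that the results turn on are shown first, as read from hg38 on the plus strand, with each CG dinucleotide in capitals, since unmethylated CG-rich DNA attracts both Polycomb and H3K4 methylation complexes. The first is the stretch of chromosome 12 just before the most upstream start site of HOXC9 (chr12:53994595-53994894), beside which H3K27me3 ended and H3K27ac began in the HOXC cluster. This stretch overlaps an annotated exon, and transcripts of the antisense RNA gene HOXC-AS2, of HOXC6 and of a further gene without a symbol. Of the 6 H3K27me3 ends 1 lay in this stretch and 5 lay up to 234 bp past its last base, and of the 6 H3K27ac starts 3 lay in it, 1 before it and 2 after it. HOXD11 (chr2:176107030-176107279) is the promoter at which H3K27ac reached further in Doxycycline, and HOXD4 (chr2:176151300-176151549) is the member at which no mark was called.
HOXC9 upstream flank: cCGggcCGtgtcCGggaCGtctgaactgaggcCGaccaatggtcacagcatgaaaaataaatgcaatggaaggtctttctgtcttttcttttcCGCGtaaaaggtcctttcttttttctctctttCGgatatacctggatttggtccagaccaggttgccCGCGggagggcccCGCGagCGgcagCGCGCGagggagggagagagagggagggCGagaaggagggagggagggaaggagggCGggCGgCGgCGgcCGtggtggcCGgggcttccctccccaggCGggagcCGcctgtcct
HOXD11 promoter: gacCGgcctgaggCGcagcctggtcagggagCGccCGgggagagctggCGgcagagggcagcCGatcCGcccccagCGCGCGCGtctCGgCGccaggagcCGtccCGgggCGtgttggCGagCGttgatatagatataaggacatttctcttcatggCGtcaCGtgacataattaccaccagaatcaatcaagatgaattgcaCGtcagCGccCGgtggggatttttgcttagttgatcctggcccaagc
HOXD4 promoter: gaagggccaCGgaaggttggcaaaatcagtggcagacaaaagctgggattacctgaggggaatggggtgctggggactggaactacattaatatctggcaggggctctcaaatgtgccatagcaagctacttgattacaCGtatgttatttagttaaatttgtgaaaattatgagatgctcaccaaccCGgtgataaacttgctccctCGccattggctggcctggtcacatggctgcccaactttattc
The HOXC9 upstream flank held 25 CG dinucleotides in 300 bases, and HOXD11 held 23 and HOXD4 4 in 250 bases each. Over 34943 RefSeq promoters (GRCh38.p14) the median was 11 in the 250 bases before the start, and 29.4% held fewer than HOXD4. Over the 38 HOX genes, in the 250 bases before the canonical start, the number ran from 3 at HOXC6 to 40, with a median of 14. HOXD4 thus had the second lowest number of the members, and the only member below it, HOXC6, carried H3K27ac.

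Promoters were sorted by the peaks within 1 kb of any annotated start site in each of 6 sets, a set being the libraries of 1 treatment and 1 replicate number. H3K27me3 dominated the HOX genes: 28 of 38 (73.7%) carried it in all 6 libraries, against 20.1% of all protein-coding genes. H3K27ac was present in all 6 libraries at 11 of 38 (28.9%), against 64.2% of all genes. H3K4me3 was present in all 6 at 18 members (47.4%, against 71.9%), H3K4me2 at 20 (52.6%, against 71.8%) and H3K4me1 at 24 (63.2%, against 61.4%).

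**Figure D1:**
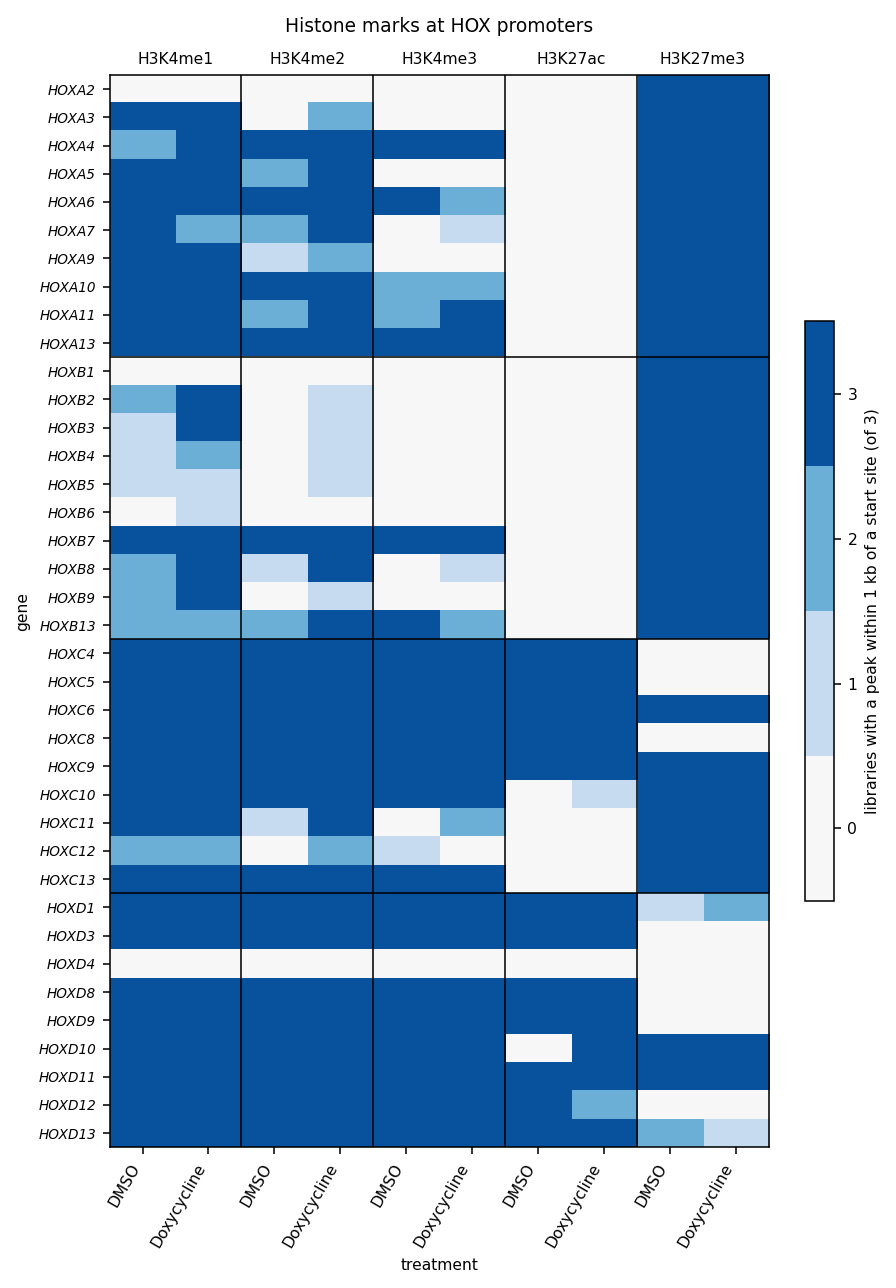
Number of libraries, of 3, with a peak within 1 kb of an annotated start site (colour), for each HOX gene (rows, by cluster and number), mark and treatment (columns). The H3K27ac columns are empty for the 20 HOXA and HOXB genes, and H3K27me3 fills 3 of 3 libraries in both treatments at all 20.

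The class of the promoter was the same in all 6 sets at 25 of 38 genes. Of the 38 genes, 11 carried H3K27me3 without H3K4me3 or H3K27ac: HOXA2, HOXA3, HOXA5, HOXA9, HOXB1, HOXB2, HOXB3, HOXB4, HOXB5, HOXB6 and HOXB9, a class that held 7.88% of all genes. Bivalent promoters in all 6 sets were HOXA4, HOXA13, HOXB7 and HOXC13 (4 of 38, against 4.83%). Active promoters, with H3K4me3 and H3K27ac and no H3K27me3, were HOXC4, HOXC5, HOXC8, HOXD3, HOXD8 and HOXD9 (6 of 38, against 50.9%). HOXC6, HOXC9 and HOXD11 carried H3K4me3, H3K27ac and H3K27me3 together within the windows of their start sites (3 of 38, against 3.58%). HOXD4 had none of these 3 marks (1 of 38, against 7.84%). The other 13 members (34.2%) changed class between sets, against 23.5% of all genes. HOXA6, HOXA7, HOXA10, HOXA11, HOXB8, HOXB13, HOXC11 and HOXC12 had H3K4me3 beside H3K27me3 in some sets and not in others. HOXD1 and HOXD13 were acetylated throughout and had H3K27me3 in 3 of 6 libraries each, HOXC10 had H3K27ac in Doxycycline replicate 3 alone, and HOXD12 lacked it there alone. HOXD10 is the member whose class followed the treatment, through an H3K27ac peak that reached into the 1 kb window of its alternative starts but not to the starts.

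The 4 members that were bivalent in all 6 sets ranked lower in H3K4me3 than the 6 active ones. HOXB7, between HOXB6 and HOXB8, had an H3K4me3 fold enrichment of 3.68, 3.05 and 2.59 in DMSO and 4.04, 3.09 and 4.03 in Doxycycline. At HOXA4, flanked by genes without the mark, it was 5.43, 8.87 and 4.75 in DMSO and 8.33, 12.0 and 4.43 in Doxycycline. HOXA13, a gene of limb and genital development at the end of its cluster, had 17.3, 21.9 and 8.09 in DMSO and 20.9, 12.9 and 12.5 in Doxycycline. HOXC13, known for its part in hair and nail, had 9.90, 12.1 and 7.26 in DMSO and 11.2, 14.4 and 7.78 in Doxycycline. All 4 overlapped between treatments. Ranked within a list, the 6 active members stood above the 4 bivalent ones in 6 of 6 libraries, with 50.1 as the highest percentile of a bivalent and 47.6 as the lowest of an active member, in different libraries. This left out HOXD10, which was bivalent in DMSO alone and stood there at the percentiles 57.7, 53.9 and 55.8. In DMSO replicate 3 it was above the active HOXC5, at 52.7. Before their canonical starts the bivalent members held 15 to 40 CG dinucleotides, the H3K27me3-only members 7 to 22 and the active members 8 to 28, so the ranges overlapped.

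Paralog groups are the sets of genes with the same number in different clusters. Every copy with H3K27ac in all 6 libraries lay in HOXC or HOXD, whether or not H3K27me3 was called there too. H3K27ac was present in all 6 libraries at 2 copies of groups 8 and 9 (HOXC8 and HOXD8, HOXC9 and HOXD9) and at 1 copy of groups 1, 3, 4, 5, 6, 11 and 13. Among the members, no copy of groups 2, 7, 10 and 12 carried it in all 6, and those of groups 2 and 7 all lie in HOXA and HOXB. In group 4 each copy had a different state: HOXA4 was bivalent, HOXB4 carried H3K27me3 alone, HOXC4 was active and HOXD4 had no mark.

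Over the whole clusters the same contrast held. HOXA (chr7:27100354-27200091, 10 genes) and HOXB (chr17:48528526-48728750, 10 genes) had 0 kb under H3K27ac peaks in each of the 6 libraries. H3K27me3 covered 99.7, 99.1 and 95.2 kb of the 99.7 kb of HOXA in DMSO and 99.7, 99.7 and 93.1 kb in Doxycycline. It covered 200.2, 182.8 and 172.7 kb of the 200.2 kb of HOXB in DMSO and 200.2, 200.2 and 179.0 kb in Doxycycline. The 3 libraries with long fragment estimates covered both clusters fully with 1 peak, of 216.7 to 252.0 kb at HOXA and of 441.1 to 573.6 kb at HOXB, and the other 3 split them into up to 32 peaks. Under the H3K27me3 of HOXA and HOXB lay smaller H3K4me3 regions, 2.27 to 5.16 kb in HOXA and 0.82 to 1.93 kb in HOXB.

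**Figure D2:**
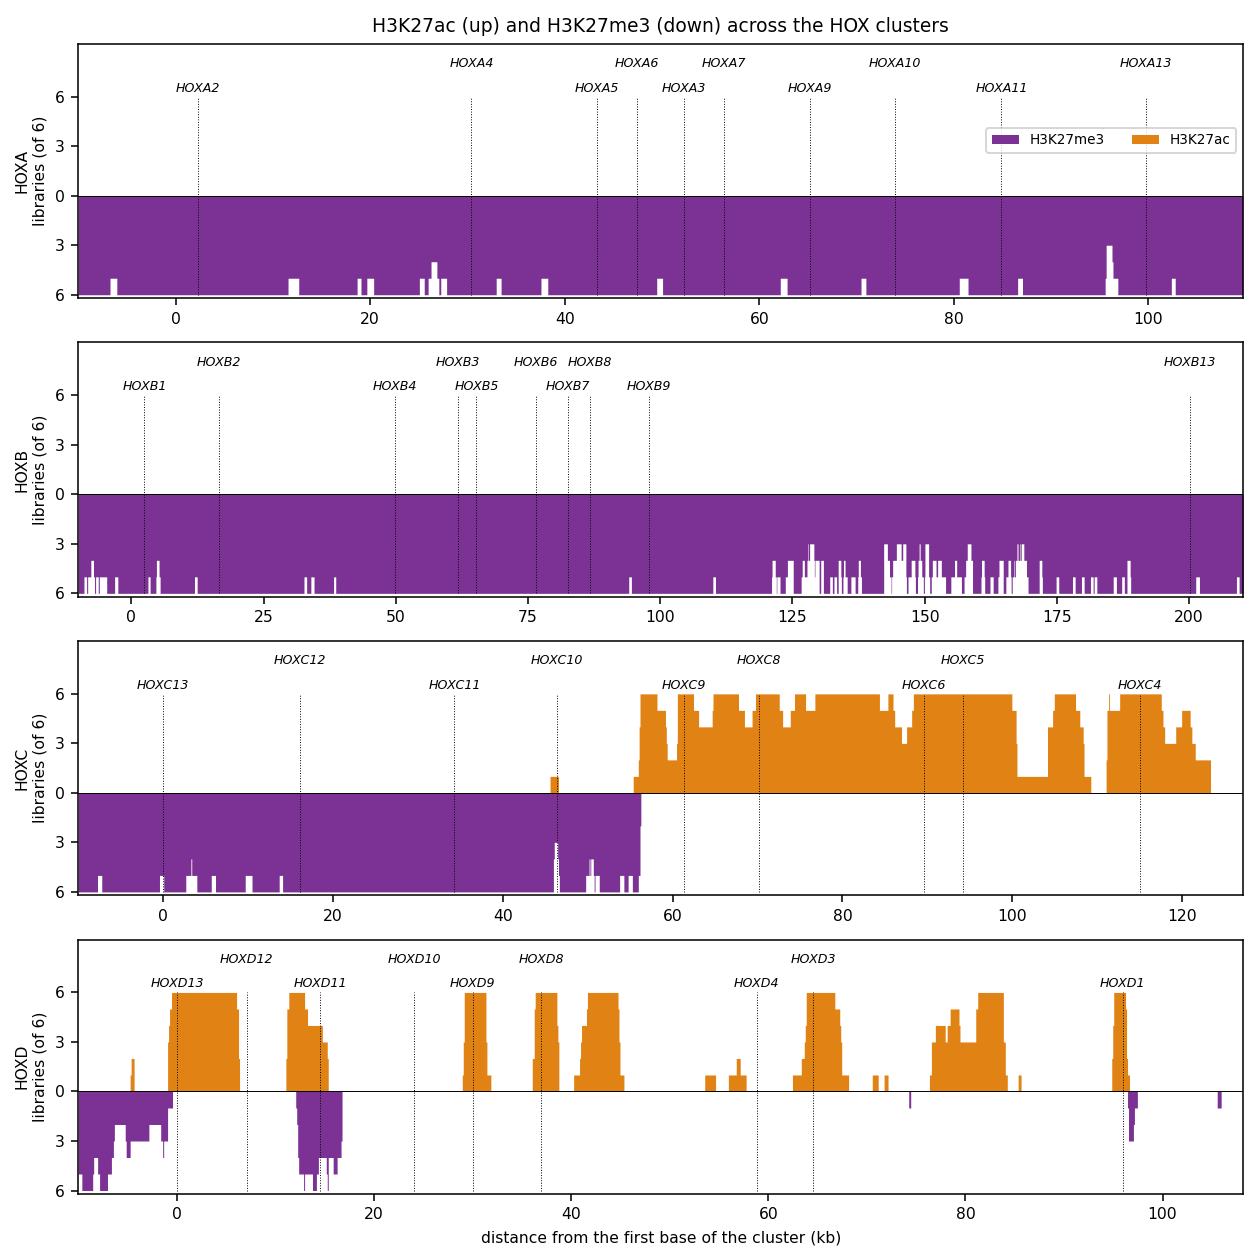
Number of libraries, of 6 (both treatments), with H3K27ac (orange, upwards) and H3K27me3 (purple, downwards) along each cluster, by distance in kb from its first base, with dotted lines at the canonical start sites. HOXA and HOXB are purple throughout, HOXC changes from purple to orange between HOXC10 and HOXC9, and HOXD is orange at separate promoters with a purple part around HOXD11.

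HOXC was divided in 2 parts. H3K27me3 covered 52.5 to 56.3 kb of its 117.2 kb and H3K27ac 44.4 to 58.4 kb over the 6 libraries of either mark. HOXC13, HOXC12, HOXC11 and HOXC10 lay on the H3K27me3 side, together with HOTAIR, a long non-coding RNA gene studied as a partner of Polycomb, and HOXC9, HOXC8, HOXC6, HOXC5 and HOXC4 had their canonical starts on the H3K27ac side. In 1 kb bins the border lay at position 53994498 on average over the 6 sets (SD 516 bp), with a range from 53993831 to 53994831.

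The last base of H3K27me3 at this border was 53995128, 53994771 and 53995026 in DMSO and 53995111, 53994968 and 53994994 in Doxycycline. These 6 ends lay within 357 bp of each other, from -124 to 233 bp relative to the upstream start of HOXC9 at 53994895, and the range of the Doxycycline libraries lay inside that of the DMSO libraries. H3K27ac began at 53994850, 53994934 and 53994878 in DMSO and at 53994133, 53994733 and 53994963 in Doxycycline. The H3K27ac starts of the treatments overlapped too. The marks shared 32 to 979 bp in 5 sets, and were 162 bp apart in DMSO replicate 2. HOXC9 and HOXC6 owe their H3K27me3 call to start sites near this border (53994895 for HOXC9, 53994944 for HOXC6), while around their canonical starts, at 54000161 and 54028440, H3K27me3 was called in 0 of 6 libraries.

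**Figure D3:**
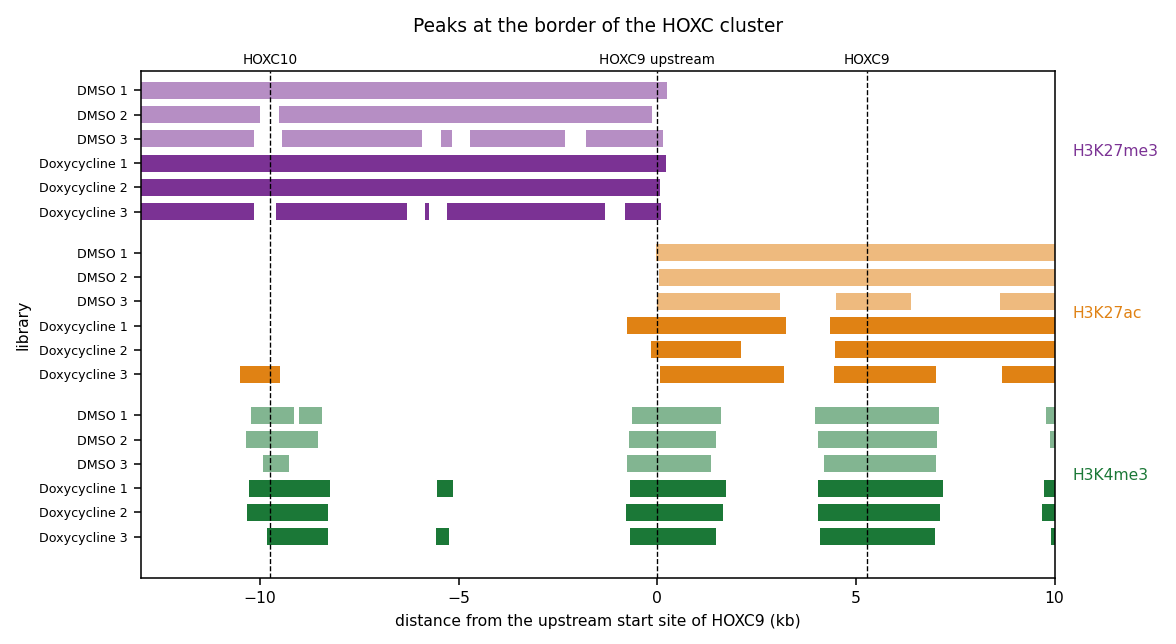
Peaks of 3 marks in each library (rows, DMSO pale and Doxycycline dark) by distance in kb from the upstream start site of HOXC9. All 6 H3K27me3 lists end within 357 bp of each other at that site, where the H3K27ac regions begin.

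H3K4me3 did not stop at the border. It was called at HOXC13 and HOXC10, inside the H3K27me3 part, in 6 of 6 libraries. At HOXC10 the fold enrichment over the input was 10.4, 14.7 and 6.83 in DMSO and 20.8, 23.9 and 12.0 in Doxycycline, so the treatments overlapped. At the upstream start of HOXC9 it was 8.74, 11.4 and 8.64 in DMSO and 21.1, 17.6 and 12.5 in Doxycycline, without overlap. This site was singled out after its values were seen, and no share over all start sites stands beside it. Of the canonical HOXC starts, 7 overlapped between treatments in this value and 2, HOXC11 and HOXC12, were not marked in all 6 libraries. The rank within its list of the peak at the upstream HOXC9 start overlapped between treatments too. Its percentile of the −log10 q-value was 39.3, 42.5 and 37.9 in DMSO and 47.5, 47.6 and 39.3 in Doxycycline. At the canonical HOXC9 start the fold enrichment was 41.8, 58.9 and 23.7 in DMSO and 33.9, 39.1 and 23.8 in Doxycycline, so that start stood well above the border start in all 6 libraries and did not separate the treatments.

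The levels of H3K27ac among the 11 members that carried it in all 6 libraries were compared by their rank within each list. HOXC4, the most downstream gene of its cluster, reached a percentile of 97.4, 98.6 and 99.0 in DMSO and 94.9, 95.9 and 99.3 in Doxycycline. HOXC6 followed with 94.1 to 99.3. In HOXD the highest were HOXD8, with 97.8 to 98.9, and HOXD3, with 96.0 to 98.5, and the 2 genes did not differ beyond their spread. HOXD11 was the lowest of the 11, with 52.6 to 74.2, next to HOXD1 with 70.5 to 79.2, and these 2 overlapped as well. Several HOXC genes shared 1 wide H3K27ac peak, up to 52.4 kb in DMSO replicate 1, so their values are not independent.

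HOXD was built of separate acetylated promoters. H3K27ac covered 26.4 to 33.8 kb of the 98.2 kb cluster and H3K27me3 1.43 to 5.42 kb. Both marks were called in every library only around HOXD11, a gene of the limb and caudal axis. H3K27me3 there ran over at most 4.68 kb, from 176104740 at the earliest to 176109475 at the latest, and was broken into 4 and 2 peaks in DMSO replicate 3 and Doxycycline replicate 3, which had short fragment estimates. A second H3K27me3 domain lay before the cluster and ended ahead of the start of HOXD13 at 176092721, with last bases from 176085648 to 176092278. HOXD13, the last gene of the cluster by number, carried H3K27ac in 6 of 6 libraries.

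The H3K27ac peak at HOXD11 had a different extent in the 2 treatments. The H3K27ac peak of its alternative start ended at -1594, 161 and -1296 bp from the canonical start in DMSO replicates 1, 2 and 3, a negative value lying before the start. In Doxycycline it ended 716, 815 and 809 bp after it. The ends of the treatments did not overlap, and the peaks were 1.86, 3.42 and 2.16 kb wide in DMSO and 4.23, 4.36 and 4.18 kb wide in Doxycycline. Their fold enrichment was 3.20, 2.54 and 2.56 in DMSO and 3.99, 3.66 and 3.87 in Doxycycline, while their percentile within the list, 69.6, 52.6 and 64.8 in DMSO and 71.7, 65.2 and 74.2 in Doxycycline, overlapped. The H3K27ac fold enrichment was higher in Doxycycline than in the DMSO library of the same number in 30 of 33 cases over the 11 acetylated members, and the percentile in 14 of 33. These cases are not independent, since HOXC5, HOXC6, HOXC8 and HOXC9 shared 1 peak in replicate 1 of both treatments. No share over all genes stands beside them. H3K4me3 had 2 peaks around HOXD11 in each DMSO library and 1 joined peak in each Doxycycline library. It covered 3.85 to 4.44 kb there in DMSO and 4.78 to 5.06 kb in Doxycycline. H3K27me3 around HOXD11 covered 4.48, 4.33 and 1.95 kb in DMSO and 4.63, 4.68 and 1.43 kb in Doxycycline, which overlapped. How often H3K27ac or H3K4me3 peaks elsewhere differed in extent between the treatments in this way was not tested.

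**Figure D4:**
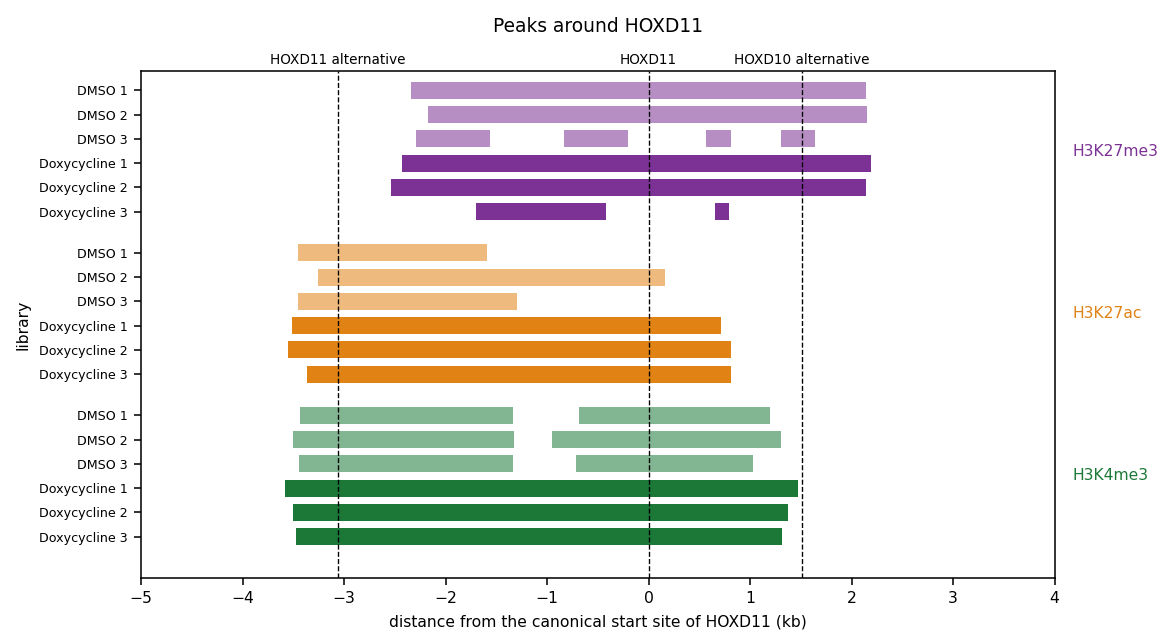
Peaks of 3 marks in each library (rows, DMSO pale and Doxycycline dark) by distance in kb from the canonical start site of HOXD11. H3K27ac ends 716 to 815 bp after that start in the 3 Doxycycline libraries and between -1594 and 161 bp from it in DMSO, and the 2 H3K4me3 peaks of each DMSO library are 1 peak in Doxycycline.

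The longer peak gave the single HOX promoter marked in 3 of 3 libraries of one treatment and 0 of 3 of the other. HOXD10 carried H3K27ac in 3 of 3 Doxycycline libraries and in 0 of 3 with DMSO, within 1 kb of its alternative starts beyond HOXD11 (the first at 176108790). The peak did not reach that start: in Doxycycline it ended at -794, -695 and -701 bp from it, a negative value lying before the start. Of all protein-coding genes 0.11% made the same change and 0.22% the opposite one. Around the canonical HOXD10 start, at 176116778, no mark was called in any of the 30 lists. The call was lost with a 2.5 kb window, in which at least 1 DMSO library also touched HOXD10, with the canonical start alone, and when peaks had to cover 50% of the window. In the other 4 marks, 0 of 38 members separated in either direction. The shares over all genes, Doxycycline only and DMSO only, were 0.125% and 0.19% in H3K4me1, 0.03% and 0% in H3K4me2, 0.0551% and 0.0751% in H3K4me3, and 0.19% and 0% in H3K27me3.

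HOXD4, the neighbour of HOXD3 and of the microRNA gene MIR10B, was the only member with no peak of any mark in 30 of 30 lists, a state of 5.60% of all protein-coding genes. The nearest peak of any list ended 1.09 kb below its start, at 176150460, and the nearest above began 3.67 kb away. Both were H3K27ac. The nearest H3K27me3 was 42.1 kb below and 15.4 kb above, so this gene lay outside both the active promoters and the Polycomb domain.

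The question of whether Doxycycline changed the marks of HOX promoters as a group was addressed by the number of marked members per library. H3K4me2 marked 27, 24 and 20 members in DMSO and 34, 28 and 27 in Doxycycline, a difference of 6 genes (exact permutation p = 0.2, or 0.5 after Benjamini-Hochberg adjustment for 5 marks). The highest DMSO and the lowest Doxycycline library were equal, at 27. H3K4me1 marked 30, 32 and 28 members in DMSO and 34, 34 and 29 in Doxycycline (difference 2.33, exact permutation p = 0.3, adjusted 0.5). H3K27ac marked 12 members in each DMSO library and 13 in each Doxycycline library (exact permutation p = 0.1, the smallest possible, adjusted 0.5), and HOXD10 was the gene that separated. H3K4me3 marked 22, 23 and 20 members in DMSO and 24, 24 and 19 in Doxycycline (exact permutation p = 0.8, adjusted 1). H3K27me3 marked 30, 28 and 29 in DMSO and 30, 29 and 28 in Doxycycline (difference 0, exact permutation p = 1, adjusted 1).

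For the length of the 4 clusters under peaks, no difference passed the test. H3K27me3 covered 342 ± 19.6 kb in DMSO and 350 ± 20.5 kb in Doxycycline (mean ± SD, n = 3 each, exact permutation p = 0.7, adjusted 0.875), and H3K27ac 81.4 ± 9.68 and 81.5 ± 6.53 kb (exact permutation p = 1, adjusted 1). The spread of H3K27me3 followed the fragment estimate, with 361.3 to 361.7 kb in the 3 libraries with long estimates and 322.5 to 341.8 kb in the others, and within these kinds the difference was -3.22 kb (exact permutation p = 0.778). H3K4me2 covered 74.9 ± 18.6 and 97.5 ± 28.7 kb (n = 3 each, exact permutation p = 0.4, adjusted 0.875), H3K4me3 55.3 ± 5.20 and 60.6 ± 6.06 kb (exact permutation p = 0.3, adjusted 0.875) and H3K4me1 119 ± 21.2 and 127 ± 18.0 kb (exact permutation p = 0.7, adjusted 0.875).

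**Figure D5:**
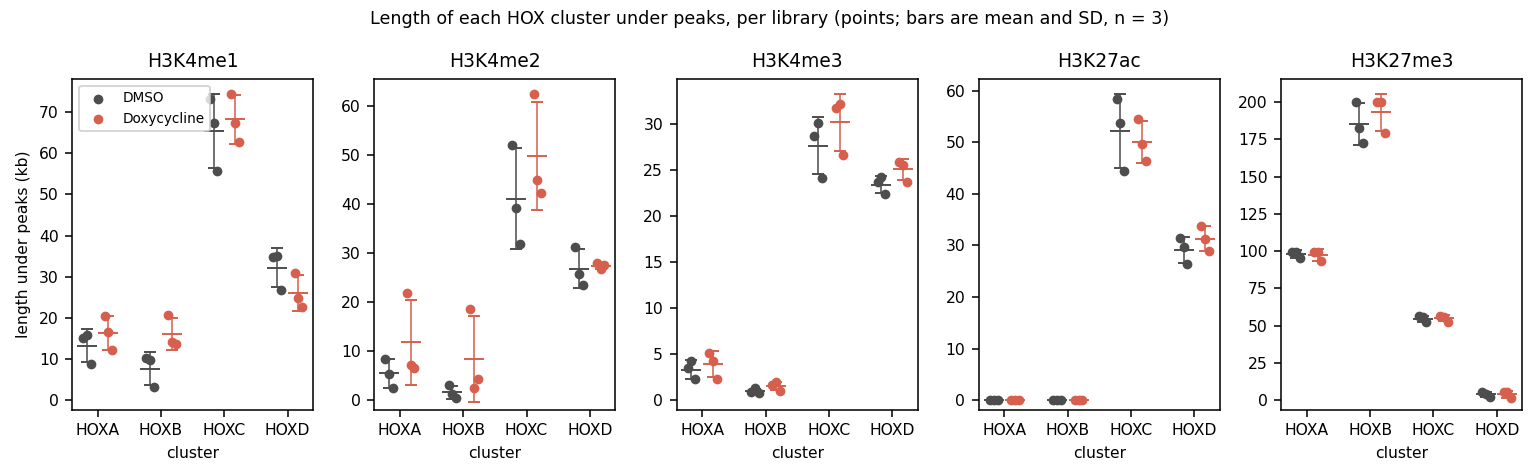
Length under peaks (kb) of each HOX cluster by mark, with 1 point per library, and the mean and SD of 3 libraries as bars. H3K27ac is at 0 kb in HOXA and HOXB in all 6 libraries, and in HOXB the H3K4me1 points of Doxycycline lie above those of DMSO.

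By cluster, the length under H3K4me1 differed without overlap in HOXB. It covered 10.3, 9.70 and 3.11 kb in DMSO and 20.6, 14.2 and 13.6 kb in Doxycycline, the single case among 20 pairs of cluster and mark. H3K27ac in HOXA and in HOXB could not separate, being at 0 kb in all 6 libraries. No share over other regions of the genome stands beside this case. HOXB and H3K4me1 were picked after the values were seen. In HOXD the H3K4me1 means ran the other way, with 34.9, 35.0 and 26.9 kb in DMSO and 31.0, 24.7 and 22.7 kb in Doxycycline, which overlapped. At the promoters of the 10 HOXB genes, H3K4me1 was called in more Doxycycline than DMSO libraries at 6, in equal numbers at 4 and in fewer at 0. HOXB3 was marked in 1 of 3 libraries with DMSO and in 3 of 3 with Doxycycline, and HOXB2, HOXB8 and HOXB9 in 2 and 3. All 9 HOXD genes had equal numbers in H3K4me1. The tally of H3K4me2 was one-sided too, with 7 HOXB genes called in more Doxycycline libraries, 3 equal and 0 in fewer. At HOXB2, HOXB3, HOXB4, HOXB5 and HOXB9, however, the only H3K4me2 call was in Doxycycline replicate 1. That library had 18.5 kb of HOXB under H3K4me2, against 2.52 and 4.30 kb in Doxycycline replicates 2 and 3. The H3K4me2 tally was 5, 5 and 0 in HOXA, 2, 7 and 0 in HOXC and 0, 9 and 0 in HOXD. Neighbouring genes can share a peak, as HOXB7 and HOXB8 did for H3K4me1 in the Doxycycline libraries, so the genes are not independent. No share over all genes stands beside these tallies, so whether they are particular to HOX genes was not tested. The H3K27me3 over HOXB covered 185 ± 13.9 and 193 ± 12.3 kb (n = 3 each) and overlapped between treatments.

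Among members marked in all 6 libraries, few changed rank within the lists. In H3K4me1, HOXA6 stood at the percentiles 51.7, 42.6 and 43.3 in DMSO and 63.3, 62.8 and 52.5 in Doxycycline, and HOXC4 at 97.8, 95.3 and 97.1 and at 99.2, 98.4 and 98.5. These were 2 of 24 members without overlap and higher in Doxycycline, where 5.66% of all genes marked in all 6 libraries were higher in Doxycycline and 8.98% in DMSO. In H3K4me2, HOXD9 was higher in DMSO (87.5, 87.5 and 87.7 against 86.2, 70.6 and 72.2), 1 of 20 members, with 3.25% and 4.24% of all genes. In H3K27me3, HOXA11 and HOXA13 were higher in DMSO (2 of 28, with 4.11% and 6.48% of all genes), all of their percentiles lying between 98.7 and 99.8. The 2 genes had the same percentile in every library but Doxycycline replicate 3 (99.1 and 98.7), so they are not independent. In H3K4me3 0 of 18 and in H3K27ac 0 of 11 members separated, with 5.97% and 8.62%, and 4.32% and 13.3%, of all genes. These counts were near the share over all genes.

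The non-coding genes inside HOXA and HOXB had the state of their surroundings, with H3K27me3 and without H3K27ac, and those of HOXC and HOXD varied. Of 17 long non-coding RNA genes, 12 carried H3K27me3 and 4 carried H3K27ac in all 6 libraries: HOXC-AS1, HOXC-AS2, HOXD-AS2 and HAGLR. All 9 in HOXA and HOXB, HOTTIP of HOXA included, were among the 12. Of the 4 with H3K27ac, HOXC-AS2 and HAGLR were not free of H3K27me3. A peak of that mark lay at HOXC-AS2 in 2 libraries with DMSO and 3 with Doxycycline, and at HAGLR in 1 and 2. No share over all long non-coding RNA genes stands beside the counts of 12 and 4. HAGLROS, in neither count, carried H3K27ac in 3 of 3 DMSO libraries and in 1 of 3 with Doxycycline. HOXB-AS3 carried H3K4me1 in 3 of 3 Doxycycline libraries and in 0 of 3 with DMSO, the single such case over the 17 genes and 5 marks in either direction. Of 18756 long non-coding RNA genes in the annotation, 0.139% had H3K4me1 in this way in Doxycycline only and 0.389% in DMSO only. The microRNA genes of the clusters give rise to regulators of HOX messages, and 3 of them make the same seed. The mature sequences from RefSeq (GRCh38.p14) are shown with the seed, bases 2 to 8, in capitals.
hsa-miR-196a-5p: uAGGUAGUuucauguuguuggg
hsa-miR-196b-5p: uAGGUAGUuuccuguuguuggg
hsa-miR-10a-5p: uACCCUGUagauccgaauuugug
hsa-miR-615-3p: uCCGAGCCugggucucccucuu
miR-196a comes from MIR196A1 in HOXB (chr17:48632532-48632553, minus strand) and MIR196A2 in HOXC (chr12:53991762-53991783, plus strand), and miR-196b from MIR196B in HOXA (chr7:27169528-27169549, minus strand). The 2 mature forms differ by A12C, counted from the 5′ end, and share the seed. All 3 genes carried H3K27me3 in 6 of 6 libraries and H3K27ac in 0 of 6, and MIR10A in HOXB did too. MIR615 (chr12:54034010-54034031, plus strand), beside HOXC5, carried H3K27ac, H3K4me3, H3K4me2 and H3K4me1 in 6 of 6 libraries and H3K27me3 in 0. MIR10B, beside HOXD4, carried H3K27ac in 1 of 3 libraries of either treatment and nothing else.

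Genes that work with the HOX proteins carried H3K27ac and H3K4me3, and most HOX genes lacked H3K27ac. The promoters of the 8 TALE homeodomain genes MEIS1, MEIS2, MEIS3, PBX2, PBX3, PBX4, PKNOX1 and PKNOX2, whose proteins bind DNA together with HOX proteins, carried H3K27ac and H3K4me3 in all 6 libraries. H3K27me3 was called in all 6 libraries at 0 of these genes and in no library at 7, all but PKNOX2. H3K27ac and H3K4me3 were also present in all 6 libraries at 16 of 16 Polycomb genes and at 9 of 9 Trithorax genes, the machinery that represses and maintains HOX expression. Of all protein-coding genes, 64.2% carried H3K27ac and 71.9% carried H3K4me3 in all 6 libraries. Of the Polycomb genes, BMI1 and CBX7 also carried H3K27me3 in all 6 libraries. No gene of the TALE, Polycomb and Trithorax lists was marked in 3 of 3 libraries of one treatment and 0 of 3 of the other in any mark.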

How the data were processed

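ChIP-seq peak lists of 5 marks in DMSO and Doxycycline, 3 libraries each, were analysed. Of 34 samples in the labels, 4 are inputs, which were used only for peak calling. Per the file headers, the authors called peaks on each library with MACS2 2.1.1.20160309 against an input (hg38, mapping quality 30 or more), in broad mode at q 0.05 for H3K4me1, H3K27ac and H3K27me3 (18 lists) and in narrow mode at p 1e-05 for H3K4me2 and H3K4me3 (12 lists), where the methods of the study give a q of 0.05. A broad domain can thus be 1 peak or many, and the kinds of list are not compared with each other. The inputs of replicates 1 and 3 had the same read totals, so they appear to be shared. The deposited pileup is fragment coverage (signal). For each peak the authors deposited a −log10 p-value, a −log10 q-value and a fold enrichment, the ratio of ChIP signal to local input, all from the peak caller. These values depend on depth and input, and were used to rank or describe peaks and to filter them.

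Chromosomes 1 to 22 and X were used, with python 3.11.15, pandas 2.3.3, numpy 2.4.6 and the GENCODE release 44 annotation. A promoter was marked where a peak shared at least 1 bp with 1 kb either side of any annotated start site. Covered length is the merged length of peaks inside a cluster. A border was the 1 kb step that best divided bins with H3K27ac from bins with H3K27me3. Differences were tested with an exact permutation test (two-sided, 20 assignments of the libraries), adjusted by Benjamini-Hochberg over the 5 marks. Interval functions gave the same calls as bedtools 2.31.1 and were tested on simulated data. The HOX genes and the lists were chosen with earlier results of these data known. All members are accounted for by class. Values per library are given for members next to a border, marked in 3 of 3 against 0 of 3 libraries, of another class than both neighbours, or highest in H3K27ac, and other items were picked after their values were seen. The alternatives were a q of 0.001 or less, a 2.5 kb window, canonical starts, 50% of the window, lists of equal length, 5 kb added to the clusters, a replicate block, 200 bp bins, H3K4me3 for H3K27ac at the border, permutation within kinds of fragment estimate, and leaving out 1 library. Expression was not analysed here, and a few genes of the lists and some promoter sequences are not reported here.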

Additional observations from a re-analysis of the deposited data

How the results depend on the processing

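No test passed 0.05 under any setting, which 3 libraries against 3 do not allow. Lists of equal length turned the difference in H3K4me3 promoters from 0.667 to -0.333 genes. Leaving out 1 library gave -0.167 to 2.33 genes, below 0 without DMSO replicate 3, Doxycycline replicate 1 or Doxycycline replicate 2. For the covered length, leaving out 1 library gave -3.92 to 16.1 kb in H3K4me1, -5.19 to 4.33 kb in H3K27ac and -2.12 to 19.4 kb in H3K27me3, below 0 without DMSO replicate 3 in each, and also without Doxycycline replicate 1 in H3K4me1 and H3K27ac. Within kinds of fragment estimate the H3K27me3 difference was -3.22 kb, since the long estimates are 1 DMSO and 2 Doxycycline libraries. H3K4me2 kept its direction, with 3.83 to 7.67 genes and 6.01 to 32.6 kb without 1 library, and Doxycycline replicate 1 gave the low end of both.

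The number of members marked only in Doxycycline, 1 in the report, was 0 with a 2.5 kb window, 0 with canonical starts, 0 with 50% of the window and 3 with lists of equal length, where HOXB3 and HOXB9 joined in H3K4me1. Without 1 library it was 1 to 4, reaching 3 without DMSO replicate 1, 2 without DMSO replicate 3 and 4 without Doxycycline replicate 3. With H3K4me3 as the active mark the HOXC border moved to 53993831. The same rule gave a HOXD step beside HOXD1 at 176189121 in 5 of 6 sets, and at 176189721 with a q of 0.001 or less. There H3K27me3 was called in 3 of 6 libraries. Leaving out 1 library was added for the border and for this count after seeing the data. With a replicate block the H3K4me2 difference of 6 genes had an exact sign-flip p of 0.25, the smallest possible, and higher values in 3 of 3 pairs; the labels do not say that the numbers mark a shared batch, and the block changed no call. With a q of 0.001 or less the difference in covered length rose from 7.61 to 26.4 kb in H3K27me3 (from 7.90 to 27.9 kb in HOXB) and from 8.24 to 17.6 kb in H3K4me1, fell in size from -6.11 to -1.30 kb for H3K4me1 in HOXD, and the difference in H3K4me1 promoters rose from 2.33 to 6 genes. Calling depth differed between the treatments, and its part was not tested. The causes were not tested.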
